A study of Mus musculus with 35 samples.

Results

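The miR-30 family was followed in the livers of ENU-treated mice through the 5 assays of the array that carry its number, mmu-miR-30a, mmu-miR-30b, mmu-miR-30c, mmu-miR-30d and mmu-miR-30e. The rule for the members uses their names alone, as assays numbered 30 with a letter from a to e, and they were 5 of the 376 miRNAs measured. The array held 0 star forms (passenger strands) of the family. The mice were 6-month-old female Big Blue transgenics, which carry a bacterial lacI gene as a mutation reporter in every cell, and all groups, the controls included, shared that strain, sex and age at treatment. Controls received 1 intraperitoneal injection of the vehicle dimethylsulfoxide (DMSO), and 7 of them were taken, 3 labelled day 1 and 4 labelled day 30. The headers of the files of the controls labelled day 1 name their arrays D0, so what day these stand for is not settled. Treated mice received 1 injection of N-ethyl-N-nitrosourea (ENU), an alkylating mutagen and carcinogen, at 120 mg/kg body weight. They were sacrificed on posttreatment days (PTDs) 1, 3, 7 and 15, with 5 mice each, and on PTDs 30 and 120, with 4 mice each. No controls were labelled with days 3, 7, 15 or 120. Age at sampling was thus not matched to the controls there, and on PTD 120 treatment and age cannot be told apart. Small RNA of each liver was measured on 1 real-time PCR array per mouse.

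A miRNA pairs with messenger RNAs mainly through its seed, the bases 2 to 8 from its 5′ end, and lowers the output of the messages it pairs with, so miRNAs with a common seed share many of their predicted targets. The miR-30 family is abundant in epithelial tissues, the liver among them. Its members are known to act on messages of the epithelial to mesenchymal transition and of fibrosis, such as those of the transcription factor Snai1 and the growth factor Ctgf, and miR-30a is known to act on the autophagy gene Becn1.

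The mature sequences are shown because they define the family and show how alike the targets of the assays are. The RefSeq table used (GRCm38.p6) held mature sequences for 3 of the 5 members, from 4 genes. Written 5′ to 3′ with the seed in capitals, these and the only other assay of the array found with the same seed, mmu-miR-384-5p, were as follows.
mmu-miR-30a-5p: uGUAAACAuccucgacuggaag
mmu-miR-30c-5p: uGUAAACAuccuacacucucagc
mmu-miR-30e-5p: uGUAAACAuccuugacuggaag
mmu-miR-384-5p: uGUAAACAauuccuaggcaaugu
The 4 sequences had 1 seed in common. Counted from the 5′ end, miR-30a and miR-30e differed at 1 of 22 bases, at position 13, whereas miR-30c differed from each of them at 5 of 22 bases, between positions 13 and 20. How far the assays for miR-30a and miR-30e each amplify the other's RNA was not tested. mmu-miR-30b and mmu-miR-30d are named only.

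The genes lie in pairs on the mouse genome. Mir30a (chr1:23272274-23272295, plus strand) and Mir30c-2 (chr1:23291714-23291736, plus strand) encode mature sequences with 19418 bases between them. Mir30c-1 (chr4:120769584-120769606, minus strand) and Mir30e (chr4:120772660-120772681, minus strand) encode mature sequences with 3053 bases between them. Both Mir30c genes give the same mature miR-30c, which the assay cannot assign to either. Mir384 lies at chrX:105344332-105344354 on the minus strand. All coordinates are those of the mature sequences in GRCm38.p6.

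The measured value is the threshold cycle (Ct), the PCR cycle at which a well's fluorescence crosses a fixed line, and a lower Ct means more RNA. Levels are given as -ΔCt, the mean Ct of the 4 reference RNAs of an array (snoRNA251, snoRNA202, snoRNA142 and U6) minus the Ct of the miRNA, which is on a log2 scale and is higher where there is more miRNA. Because primers amplify with efficiencies that are not known here, the Ct of one assay set beside that of another gives only a rough place and not an amount of RNA, and differences are tested within an assay only. Over the 35 arrays the mean Ct was 19.3 for miR-30a, 19.7 for miR-30b, 19.7 for miR-30c, 21.5 for miR-30d and 22.3 for miR-30e. Only 21 to 57 of the 376 assays had a lower mean Ct than these members, and 0 of the miR-30 wells lacked a Ct. In a liver sample a lower level cannot be told apart from fewer cells of the type that holds the miRNA.

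miR-122, the defining miRNA of hepatocytes, had the lowest mean Ct of all 376 assays, 14.5. Its level was 3.29 in the first PTD 15 mouse, against 7.60 to 8.66 in the other 4 mice of that day and 6.75 to 8.28 in the controls, so the members' differences on PTD 15 are given also without that mouse. The file headers place the arrays in 3 run periods: period 1 held the 3 controls labelled day 1, 4 of the 5 PTD 1 mice and all mice of PTDs 3, 7 and 15, period 2 held 2 controls labelled day 30, 1 PTD 1 mouse and all mice of PTDs 30 and 120, and period 3 held the other 2 controls labelled day 30. The 2 labels of controls differed in their miR-30 levels: the mean of the controls labelled day 30 was higher by 1.02 for miR-30a, 0.46 for miR-30b, 0.22 for miR-30c, 1.11 for miR-30d and 1.00 for miR-30e on the log2 scale. Day label, run period and the levels of the controls cannot be told apart, so differences from the controls are given also with the run period as a block. The reference RNAs themselves moved, with a mean Ct of 21.2 in the controls labelled day 1, 22.1 in those labelled day 30 and 22.5 on PTD 15. The difference between the 2 wells that test the reverse transcription step (first minus second, in cycles) was also uneven. It was above 0 in 2 of 7 controls, in 3 of 5 mice on PTD 3, in 4 of 5 on PTD 7 and in 3 of 5 on PTD 15, and below 0 in all 5 mice of PTD 1 and all 8 of PTDs 30 and 120.

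**Figure D1:**
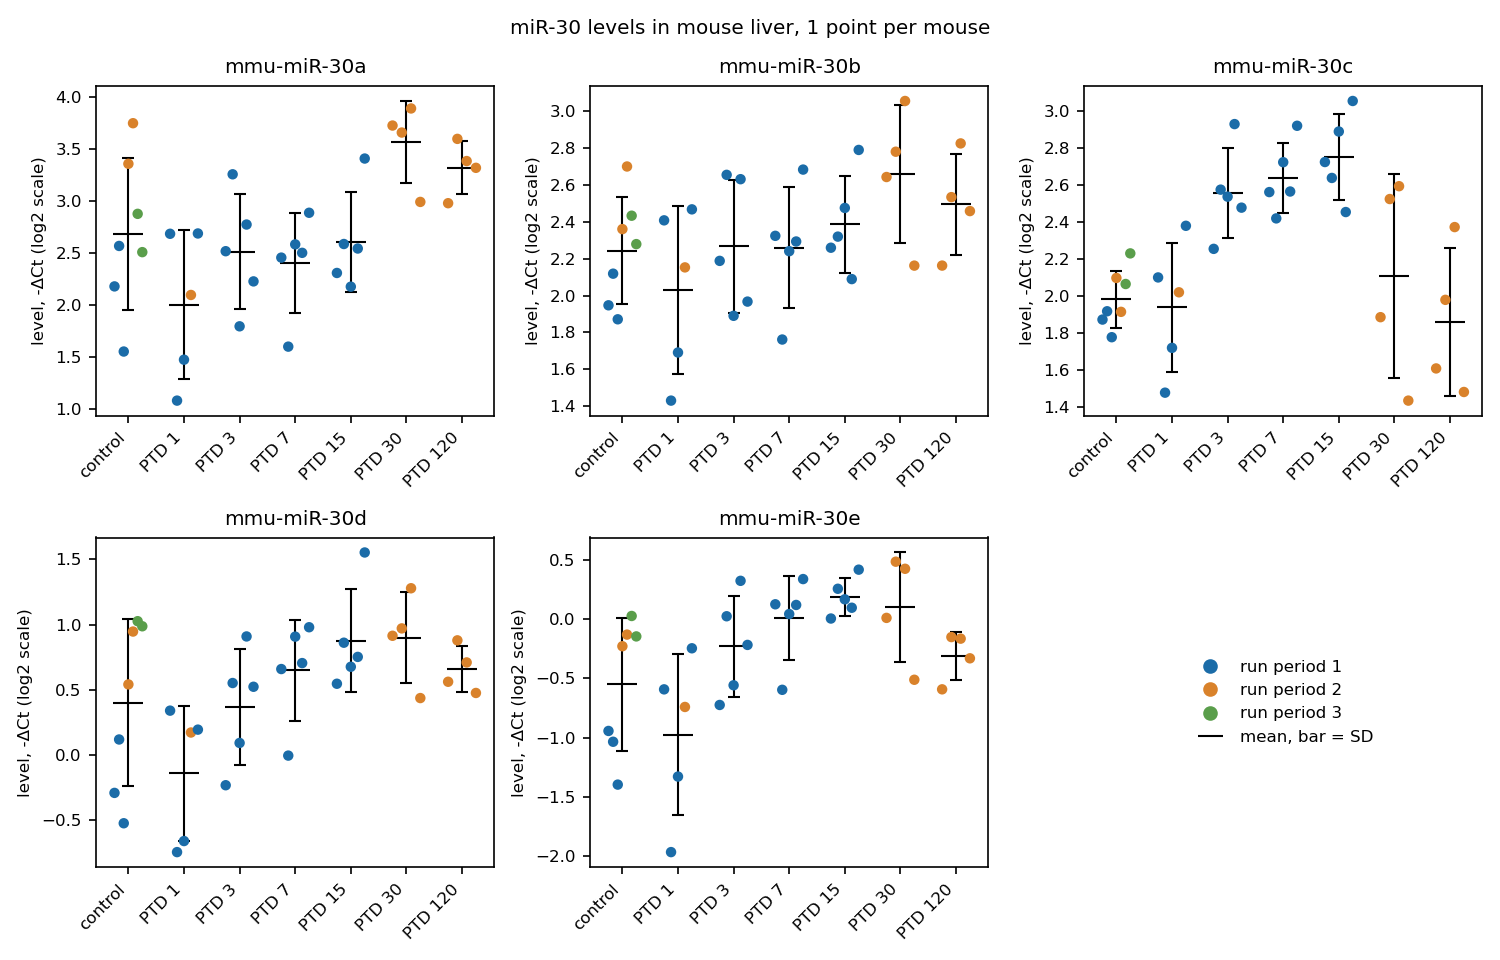
Level of each miR-30 member (-ΔCt, log2 scale, y axis) by group (x axis), with 1 point per mouse coloured by run period and the mean and SD of each group in black. The miR-30c points of PTDs 3, 7 and 15 lie above all 7 controls, while the controls of miR-30a, miR-30d and miR-30e spread by run period.

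With all 7 controls and the reference RNAs as the scale, mmu-miR-30c was the member with the smallest p-values against the controls on PTDs 3, 7 and 15. With the run period as a block, or against the array median, miR-30e had the smaller adjusted p on PTDs 7 and 15. The level of miR-30c in the 7 controls ran from 1.78 to 2.23, with a median of 1.92 and a mean of 1.98 ± 0.16 (SD). On PTD 3 the 5 mice were at 2.26, 2.58, 2.54, 2.93 and 2.48. Each of them lay above the highest control. On PTD 7 the levels were 2.56, 2.42, 2.72, 2.57 and 2.92, and on PTD 15 they were 2.73, 2.64, 2.89, 2.46 and 3.06. These 10 mice also lay above every control. Without overlap between the groups, miR-30c was 1 of 6 such miRNAs on PTD 3 (1.60% of the 376), 1 of 8 on PTD 7 (2.13%) and 1 of 29 on PTD 15 (7.71%), counting miRNAs that were higher in all treated mice.

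Against all 7 controls, the difference of miR-30c was 0.57 ± 0.25 (SE) on PTD 3, 0.66 ± 0.23 on PTD 7 and 0.77 ± 0.23 on PTD 15 on the log2 scale, or 1.49-fold, 1.58-fold and 1.71-fold. The exact permutation test over mice gave a two-sided p of 0.00126 on each of the 3 days, the smallest that 5 mice against 7 can give. Adjusted over all 376 miRNAs, that exact test gave 0.095 on PTD 3, 0.0365 on PTD 7 and 0.0279 on PTD 15. limma, which borrows the spread of all miRNAs, gave adjusted p-values of 0.465, 0.0994 and 0.0396, so that by the rule used here, a limma adjusted p under 0.05, miR-30c was called on PTD 15 only. It was the 1 member called higher there, against 29 of 376 miRNAs in all (7.71%). The exact test adjusted over the 376 called 2.66% of them higher on PTD 7 and 9.57% on PTD 15, miR-30c being the 1 member in both. Ranked from the lowest, its difference was number 333 of 376 on PTD 3, 295 on PTD 7 and 281 on PTD 15.

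The call on PTD 15 was close to the threshold. Of the 12 fits that leave out 1 mouse it was kept in 1, without the fourth control labelled day 30 (0.81, limma adjusted p = 0.0372), and in the other 11 the adjusted p reached up to 0.0960 with differences of 0.69 to 0.85. Without the first PTD 15 mouse, that of the low miR-122, the difference was 0.78 (limma adjusted p = 0.0916). The call was also lost without snoRNA202 (0.82, limma adjusted p = 0.112), snoRNA142 (0.75, 0.0840) or U6 (0.58, 0.113) as a reference, with the controls labelled day 30 alone (0.68, adjusted p = 0.0808) and with the difference of the reverse transcription wells as a covariate (0.69, adjusted p = 0.0707). The replicate block lost it too. With the run period as a block the difference was larger, 0.78 on PTD 7 (limma adjusted p = 0.0154) and 0.90 on PTD 15 (limma adjusted p = 0.00578). That fit called 44.4% of the 376 miRNAs higher on PTD 7 and 50.5% on PTD 15, so calls by it were common on the array.

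The Ct of miR-30c itself moved less than that of the references. It averaged 19.8 in the 7 controls and 19.8 on PTD 15, a difference of 0.0034 cycles, while the mean Ct of the references rose by 0.77 and the median Ct of the 376 miRNAs by 0.81. The 2 labels of controls lay on either side, at a miR-30c Ct of 19.4 for day 1 and 20.1 for day 30. Against the controls labelled day 1, which shared the run period of the PTD 15 mice, the Ct of miR-30c rose by 0.38, that of the references by 1.28 and the array median by 0.79. Against those labelled day 30 it fell by 0.28, while the references rose by 0.39 and the array median by 0.82. Set against the array median in place of the references, miR-30c was higher by 0.87 on PTD 3 (limma adjusted p = 0.138), 0.96 on PTD 7 (0.0091) and 0.80 on PTD 15 (0.0403). On that scale the run period as a block made the differences smaller, 0.48 on PTD 3 (limma adjusted p = 0.354), 0.57 on PTD 7 (0.0573) and 0.41 on PTD 15 (0.234), and none of these was called. The block thus raised the differences of miR-30c on the scale of the references and lowered them on the scale of the array median. The reverse transcription wells moved with the same days, and their part in the result was not tested beyond the covariate fit.

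**Figure D2:**
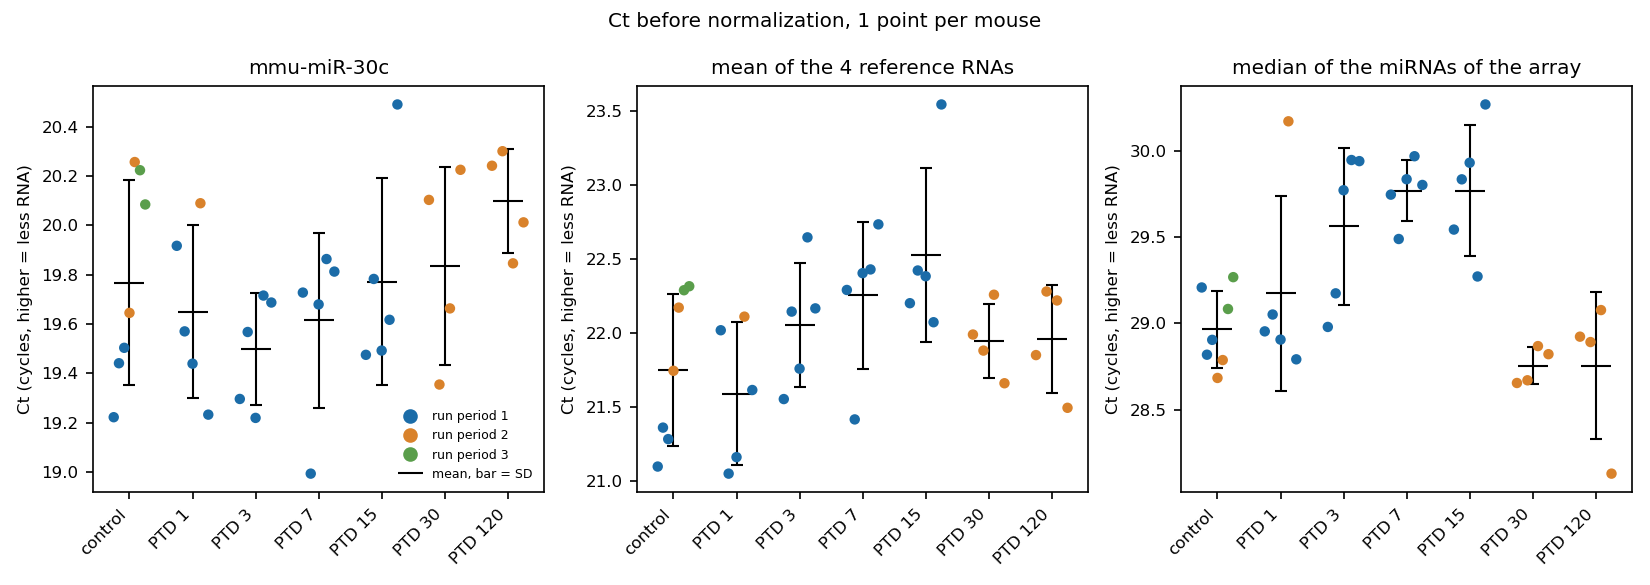
Ct (cycles, y axis) of miR-30c, of the mean of the 4 reference RNAs and of the median miRNA of the array by group (x axis), 1 point per mouse coloured by run period, with mean and SD. The miR-30c means of all 7 controls and of PTD 15 are both 19.8, with the controls labelled day 1 at 19.4, while the reference mean rises from 21.8 to 22.5 and the array median by 0.81 cycles.

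On the other days miR-30c was near the controls or spread around them. On PTD 1 the mice were at 2.10, 1.48, 1.72, 2.02 and 2.38, a difference of -0.04 ± 0.29. On PTD 30 they were at 1.89, 2.53, 2.60 and 1.44, and on PTD 120 at 1.61, 1.98, 2.37 and 1.48. The 4 mice of PTD 30 thus held 2 levels above every control and 1 below, and the difference of their mean was 0.13 (95% interval -0.54 to 0.80). On PTD 120 it was -0.12 (95% interval -0.73 to 0.49). The blocked values were 0.10 and -0.15, and 0.70 on PTD 3 (limma adjusted p = 0.0942).

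mmu-miR-30e, which differs from miR-30a by 1 base, had the lowest level on PTD 1 and the highest on PTD 15. In the 7 controls it ran from -1.40 to 0.02, with a median of -0.23, and the 3 controls labelled day 1 (-0.94, -1.04 and -1.40) lay below the 4 labelled day 30 (-0.23, -0.13, 0.02 and -0.15). The PTD 15 mice were at 0.00, 0.25, 0.17, 0.09 and 0.42. They were tightly grouped, and 1 control reached into their range. The difference was 0.74 ± 0.30 (SE; exact permutation p = 0.0189, 0.0937 adjusted over the 376 miRNAs; limma adjusted p = 0.123), and it was not called. With the run period as a block it was 1.13 on PTD 7 (limma adjusted p = 0.00699) and 1.31 on PTD 15 (limma adjusted p = 0.00113), because that fit sets these mice against the 3 controls of their own run period. With the controls labelled day 30 alone it was 0.13 and 0.31 (adjusted p = 0.787 and 0.350). On PTD 1, 3, 30 and 120 the differences from all 7 controls were -0.42, 0.32, 0.65 and 0.24, and with the block -0.09, 0.89, 0.28 and -0.13, none of them called. Without the mouse of the low miR-122, miR-30e on PTD 15 was at 0.78 (limma adjusted p = 0.177).

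mmu-miR-30d was lowest on PTD 1 and highest on PTDs 15 and 30. Its controls ran from -0.52 to 1.03 with a median of 0.54, and those labelled day 1 were at -0.29, 0.12 and -0.52, those labelled day 30 at 0.54, 0.95, 1.03 and 0.99. The PTD 1 mice were at 0.34, -0.74, -0.66, 0.17 and 0.19 and the PTD 15 mice at 0.55, 0.86, 0.68, 0.75 and 1.55. The PTD 15 mice all lay above all PTD 1 mice, but within or above the range of the controls. Against all 7 controls the differences from PTD 1 to PTD 120 were -0.54, -0.03, 0.25, 0.48, 0.50 and 0.26, none called. With the run period as a block they became 0.88 on PTD 7 (limma adjusted p = 0.0240) and 1.11 on PTD 15 (limma adjusted p = 0.00725), and -0.15, 0.60, 0.16 and -0.09 on PTDs 1, 3, 30 and 120, none of these 4 called. Without the mouse of the low miR-122, miR-30d on PTD 15 was at 0.56 (limma adjusted p = 0.363). With the controls labelled day 30 alone the values of PTDs 7 and 15 were -0.23 and 0.0026 (adjusted p = 0.631 and 0.998).

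mmu-miR-30a, the member known for its action on Becn1, was lowest on PTD 1 and highest on PTDs 30 and 120. The 3 controls labelled day 1 were at 2.18, 2.57 and 1.55, and the 4 labelled day 30 at 3.36, 3.75, 2.88 and 2.51. The PTD 30 mice were at 3.72, 3.66, 3.89 and 2.99 and the PTD 120 mice at 2.98, 3.60, 3.38 and 3.32. These 8 mice all lay above 5 of the 7 controls, and on both sides of the other two, the controls of their own run period, 3.36 and 3.75. The difference from all controls was 0.88 ± 0.42 (SE) on PTD 30 (exact permutation p = 0.0545; limma adjusted p = 0.435) and 0.63 ± 0.40 on PTD 120 (exact permutation p = 0.139; limma adjusted p = 0.487). With the run period as a block it was 0.013 and -0.23 (adjusted p = 0.998 and 0.990). On PTDs 1, 3, 7 and 15 it was -0.68, -0.17, -0.28 and -0.08, and with the block -0.49, 0.41, 0.31 and 0.50, so the sign on PTDs 3, 7 and 15 depended on which controls were used. Without the mouse of the low miR-122 it was -0.0057 on PTD 15.

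mmu-miR-30b was the member whose group means varied least. Its controls ran from 1.87 to 2.70 with a median of 2.28, its group means ran from 2.03 on PTD 1 to 2.66 on PTD 30, and the differences from the controls, in order of days, were -0.21, 0.02, 0.02, 0.14, 0.42 and 0.25. Blocked by run period they were -0.09, 0.29, 0.28, 0.41, 0.13 and -0.04. None was called, and the 95% interval on PTD 15 was -0.39 to 0.68 with all 7 controls. Without the mouse of the low miR-122 the PTD 15 value was 0.17.

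**Figure D3:**
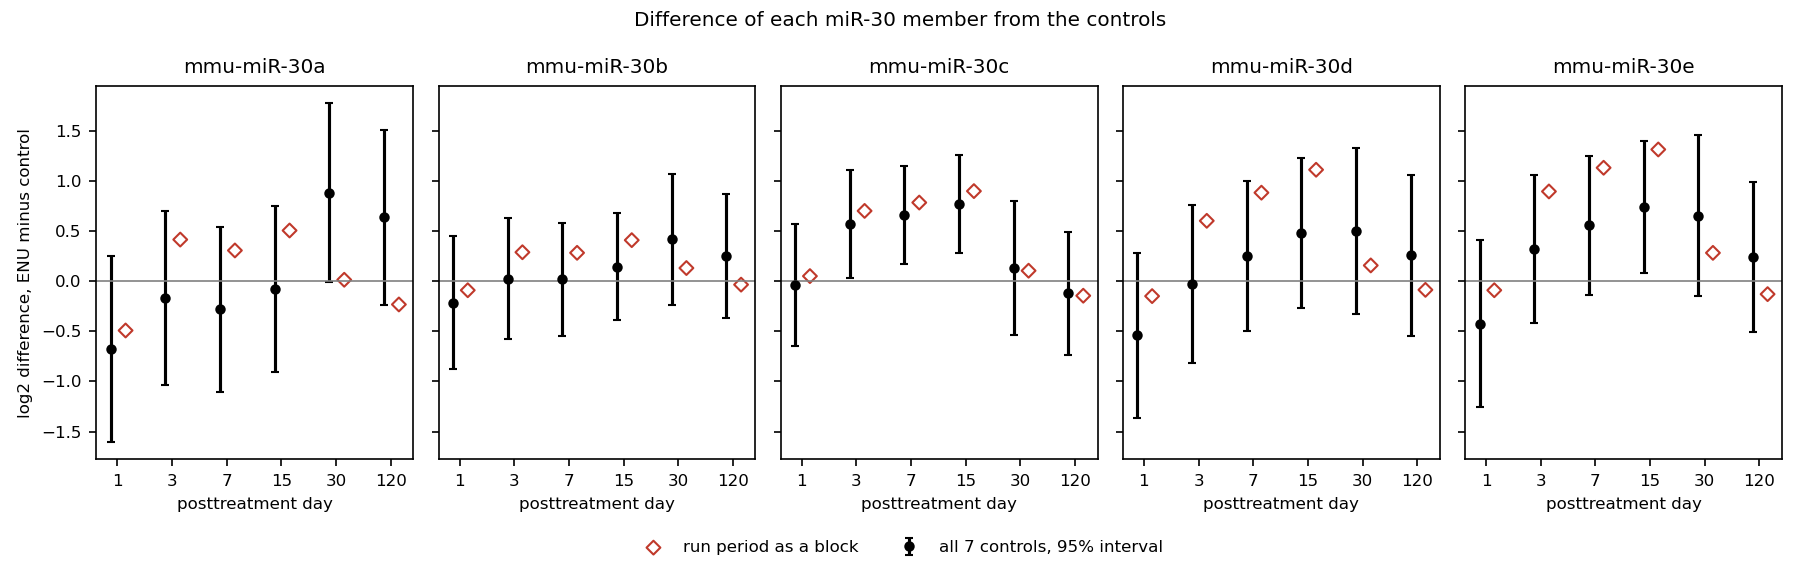
Log2 difference of each member from the controls (y axis) on each posttreatment day (x axis): black points and bars give the fit with all 7 controls and its 95% interval, red diamonds the fit with run period as a block. The interval of miR-30c lies above 0 on PTDs 3, 7 and 15, and the diamonds of miR-30d and miR-30e on PTDs 7 and 15, at 0.88 to 1.31, lie above the black points.

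Counted over the family, 0 members were called on PTDs 1, 3, 7, 30 and 120, where 0%, 0.798%, 7.45%, 0.532% and 0% of the 376 miRNAs were called in either direction. At an unadjusted limma p under 0.05 the family had 1 member on PTD 3 and 1 on PTD 7, miR-30c in both, and 2 on PTD 15, miR-30c and miR-30e, all of them higher, as were 5.05%, 12% and 20.5% of the 376 miRNAs at that threshold. No member reached a 2-fold difference from all 7 controls on any day. The median difference of the 5 members was -0.42, 0.02, 0.25, 0.48, 0.50 and 0.25 on the 6 days in order, beside -0.37, 0.02, 0.19, 0.36, 0.54 and 0.46 for all 376 miRNAs. The family's median moved with that of the array, so its course over the days is not particular to it by this measure. Against the array median, 3 members were called higher on PTD 7, miR-30c, miR-30d (0.55, limma adjusted p = 0.0336) and miR-30e (0.86, limma adjusted p = 0.0048), and 2 on PTD 15, miR-30c and miR-30e (0.77, limma adjusted p = 0.0237). On that scale 28.5% of the 376 miRNAs were called higher on PTD 7 and 18.1% on PTD 15. With the run period as a block as well, 2 members were called on PTD 7, miR-30d (0.66, limma adjusted p = 0.0188) and miR-30e (0.91, limma adjusted p = 0.0080), and 1 on PTD 15, miR-30e (0.83, limma adjusted p = 0.0326), where 40.4% and 25% of all miRNAs were called higher. With the controls labelled day 1 alone and the reference RNAs as the scale, 3 members were called higher on PTD 7 (miR-30c, miR-30d and miR-30e), 3 on PTD 15 (the same ones), 3 on PTD 30 (miR-30a, miR-30d and miR-30e) and 1 on PTD 120 (miR-30a), where 40.7%, 47.9%, 48.9% and 36.4% of all 376 miRNAs were called higher.

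Comparisons among treated mice leave the controls out. Within run period 1, the 5 mice of PTD 15 were set against the 4 of PTD 1. miR-30e was higher on PTD 15 by 1.22 ± 0.41 (SE; 2.33-fold; limma adjusted p = 0.0380) and miR-30d by 1.10 ± 0.40 (2.14-fold; limma adjusted p = 0.0483), and both were called. That is 2 of 5 members, where 28.5% of all 376 miRNAs were called higher, so calls were common on the array as a whole. The median difference in this comparison was 0.83 for the 5 members and 0.80 for all 376 miRNAs. miR-30c was higher by 0.83 ± 0.36 and missed the threshold (limma adjusted p = 0.0762). The levels of these 3 members did not overlap between the days (exact permutation p = 0.00794, the smallest that 5 mice against 4 can give, and 0.0321 adjusted over the 376 miRNAs), as was so, in the upward direction, for 24.7% of all 376 miRNAs, and 26.6% of all miRNAs were called higher by that adjusted exact test. miR-30a and miR-30b were at 0.62 and 0.39 (adjusted p = 0.269 and 0.404), and without the mouse of the low miR-122 miR-30a, miR-30b and miR-30c were at 0.70, 0.42 and 0.84.

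Both calls were lost under several settings. Of the 9 fits without 1 mouse, miR-30d and miR-30e were called in 2 each, without the first PTD 1 mouse (1.28 and 1.37) and without the fifth (1.23 and 1.48). In the other 7 fits the differences stayed at 0.92 or more for miR-30d and 0.91 or more for miR-30e, with limma adjusted p-values of up to 0.146 and 0.125, and without the first PTD 15 mouse they were 1.18 and 1.27 (adjusted p = 0.0663 and 0.0587). With the difference of the reverse transcription wells as a covariate, miR-30d was at 0.45 and miR-30e at 0.62 (limma adjusted p = 0.933 for each). Neither was called without snoRNA202 (1.20 and 1.32), without U6 (0.88 and 1.00) or with the replicate block (1.13 and 1.24), and only miR-30e was called without snoRNA142. Against the array median both were called (0.88 and 1.00), where 36.2% of all miRNAs were called higher.

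PTD 7 against PTD 1 within the same run period gave 0 called members, where 24.7% of all miRNAs were called in either direction. The median difference was 0.72 for the 5 members and 0.64 for all 376 miRNAs. The differences were 0.42 for miR-30a, 0.26 for miR-30b, 0.72 for miR-30c, 0.87 for miR-30d and 1.04 for miR-30e, with limma adjusted p-values of 0.0722 for miR-30e and above for the others. miR-30c did not overlap between these days (exact permutation p = 0.00794, 0.0635 adjusted over the 376 miRNAs), as was so, in the upward direction, for 9.57% of the 376 miRNAs. Against the array median, miR-30c, miR-30d and miR-30e were called on PTD 7 against PTD 1, at 0.77, 0.92 and 1.09, where 46.3% of all miRNAs were called higher. PTD 3 against PTD 1 gave 0 called members and 0% of all miRNAs, with differences of 0.27 to 0.80. PTD 120 against PTD 30 gave 0 of 5 and 0% of 376, with all 5 differences between -0.41 and -0.17.

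How the members stood against each other can be read within an array without any reference RNA. Set against the mean of the 5 members, in which each member is itself counted, 0 members were called on any of the 6 days by limma, where 0.266%, 0.798%, 12.2%, 12%, 0% and 0% of the 376 miRNAs were called on PTDs 1 to 120 in order. On PTD 3, miR-30c was at 0.43 ± 0.21 within the family (SE; exact permutation p = 0.0379; limma adjusted p = 0.348). On PTD 7, miR-30a was at -0.52 ± 0.21 (exact permutation p = 0.0189; limma adjusted p = 0.103) and miR-30b at -0.22 ± 0.15 (exact permutation p = 0.0189; limma adjusted p = 0.333). miR-30c was at 0.42 ± 0.20 (exact permutation p = 0.0366; limma adjusted p = 0.165) and miR-30e at 0.32 ± 0.15 (exact permutation p = 0.00379; limma adjusted p = 0.153). miR-30e did not overlap with the controls on this scale, as was so, in the upward direction, for 2.39% of the 376 miRNAs. miR-30d kept its distance from the family mean, with a difference of 0.0089 that turned below 0 in some of the fits without 1 mouse.

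On PTD 15 the values within the family were -0.49 for miR-30a, -0.27 for miR-30b, 0.36 for miR-30c, 0.07 for miR-30d and 0.33 for miR-30e, and without the mouse of the low miR-122 they were -0.46, -0.28, 0.32, 0.10 and 0.33. In the blocked fit, the values of miR-30c within the family were 0.12 on PTD 3, 0.11 on PTD 7 and 0.05 on PTD 15 (limma adjusted p of 0.668 or more), those of miR-30a were -0.37 and -0.34 on PTDs 7 and 15, those of miR-30b -0.39 and -0.44 and those of miR-30d 0.21 and 0.26. miR-30e was at 0.45 on PTD 7 (limma adjusted p = 0.0315), the 1 member called in that fit, where 15.4% of the 376 miRNAs were called higher, and at 0.47 on PTD 15 (limma adjusted p = 0.0596). On PTDs 30 and 120 miR-30a and miR-30c stood the other way round: against all 7 controls miR-30a was at 0.37 and 0.38 and miR-30c at -0.39 and -0.37, with exact permutation p-values of 0.0758 to 0.109 and limma adjusted p-values of 0.694 and 0.873, and none of these was called. Blocked by run period, miR-30a was at -0.12 and -0.11 and miR-30c at -0.03 and -0.02, so that this contrast was not seen once the run period was in the fit.

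Of the pairs of members, miR-30a and miR-30c differed most from day to day, and the run period moved with that difference. The level of miR-30a minus that of miR-30c averaged 0.70 ± 0.68 (SD) in the 7 controls, -0.24 ± 0.33 on PTD 7, -0.15 ± 0.42 on PTD 15, 1.45 ± 0.31 on PTD 30 and 1.46 ± 0.35 on PTD 120. In run period 1 it lay between -0.23 and 0.65 in the 3 controls and between -0.82 and 0.68 in the 19 treated mice. In run period 2 it was 1.26 and 1.83 in the 2 controls and 0.07 to 1.84 in the 9 treated mice, the lowest being the PTD 1 mouse of that period. In run period 3 it was 0.28 and 0.81 in the 2 controls. The 8 mice of PTDs 30 and 120, at 1.01 or more, thus lay around the 2 controls of their own run period and above the other 5 controls. In the blocked fit above the contrast on PTDs 30 and 120 was not seen. By contrast, miR-30d minus miR-30e stayed within 0.44 and 1.22 in all 35 arrays, with group means of 0.60 to 0.97.

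**Figure D4:**
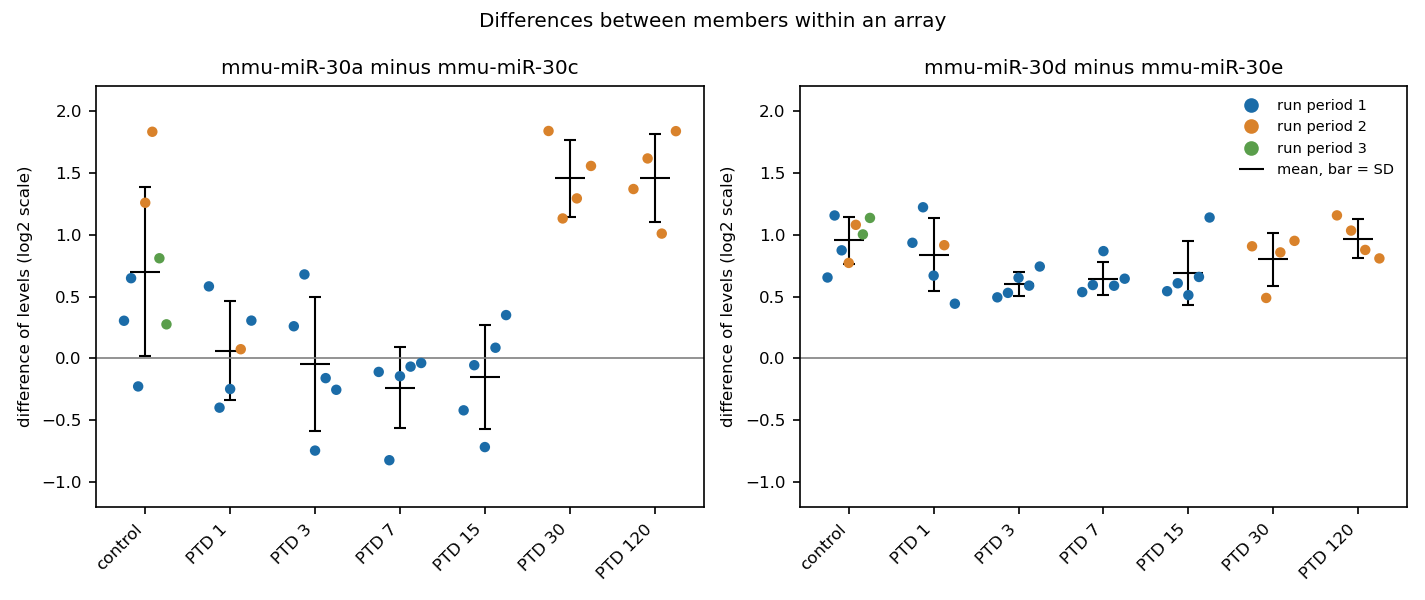
Difference of levels within an array (log2 scale, y axis) by group (x axis), for miR-30a minus miR-30c and for miR-30d minus miR-30e, 1 point per mouse coloured by run period, with mean and SD. The first difference is 1.01 to 1.84 in the 8 mice of PTDs 30 and 120 and at most 0.68 on PTDs 1 to 15, and the second varies less.

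Over the 35 arrays, and on the scale of the array median, the pairs most alike were miR-30d with miR-30e (Pearson r = 0.89) and miR-30b with miR-30c (r = 0.84). On this scale miR-30a was least like the others, at -0.19 with miR-30c, 0.13 with miR-30b, 0.24 with miR-30e and 0.25 with miR-30d. These correlations describe arrays that share groups and run periods, and no test was made of them. On the scale of the reference RNAs all 10 pairs correlated above 0, from 0.11 to 0.91, and the order was another: miR-30a stood close to miR-30b (0.88) and miR-30d (0.76), miR-30b with miR-30c was at 0.43 and miR-30a with miR-30c remained lowest at 0.11. Which member was least like the others thus depended on the scale.

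The order of the group levels was set beside their spread. Of the 30 neighbouring pairs of groups (6 for each member), 3 differed by more than the pooled SD of the pair. These were the step from the controls to PTD 120 for miR-30a, from PTD 30 to PTD 3 for miR-30c and from PTD 1 to PTD 3 for miR-30d. For miR-30c the order from the lowest was PTD 120, PTD 1, the controls and PTD 30 (1.86 to 2.11), then PTDs 3, 7 and 15 (2.56 to 2.75). For miR-30a PTDs 1, 7, 3 and 15 and the controls came first (2.00 to 2.68), then PTD 120 and PTD 30 (3.32 and 3.56). Neighbours within these runs did not differ beyond their spread.

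mmu-miR-384-5p, which shares the seed of the family, was near the limit of the assay, with a mean Ct of 34.0 and 1 well without a Ct, in a PTD 7 mouse. Of the 376 assays, 355 had a lower mean Ct. Its level was below that of the controls by 1.60 ± 0.51 (SE) on PTD 7 with 4 mice (exact permutation p = 0.0242; limma adjusted p = 0.0785) and was not called against the controls on any day. Set against the mean of the 5 members it was lower on PTD 7 by 1.82 ± 0.49 (SE; exact permutation p = 0.00909; limma adjusted p = 0.0287), and it was called there, as were 10.4% of the 376 miRNAs in that direction. On PTD 7 against PTD 1 within run period 1 it was also called lower, by 1.46 ± 0.50 (SE) with 4 mice each (exact permutation p = 0.0571; limma adjusted p = 0.0470), as were 9.57% of all miRNAs.

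The 5 other assays whose course over the 35 arrays was most like the mean of the family, on the scale of the array median, were mmu-miR-140* (r = 0.91), mmu-miR-24 (r = 0.90 over 34 arrays), mmu-miR-28 (r = 0.88), mmu-miR-20a (r = 0.87) and mmu-miR-497 (r = 0.86). Their differences from the controls on PTD 15 were 0.54, 0.49, 0.43, 0.71 and 0.74, and none of the 5 was called on any day.

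The medians of other lists of miRNAs against the controls are given as a description. On PTD 3 the median was 0.02 for miR-30 and 0.02 for all 376 miRNAs. That of miR-29 was 0.68 there and that of the epithelial and anti-fibrotic list 0.51. On PTD 1 that of let-7 was -0.80, beside -0.42 for miR-30 and -0.37 for all miRNAs. The pro-fibrotic list was at 0.83 on PTD 120, beside 0.25 and 0.46 in the same order, and at 0.32 on PTD 7, beside 0.25 and 0.19. Of all 376 miRNAs, 7.71% were called higher and 4.52% lower on PTD 15, with a median of 0.36. Of the 8 members of let-7, the family that restrains growth genes such as Ras, 1 was called higher there, with a median of 0.67. Of the 3 members of miR-29, which acts on collagen messages, 0 were called, with a median of 0.61. Of 7 epithelial and anti-fibrotic miRNAs (miR-29a, miR-29b, miR-29c, miR-200a, miR-141, miR-429 and miR-122) 0 were called on any day against the controls, with a median of 0.33 on PTD 15, and of 4 pro-fibrotic ones (miR-21, miR-199a-5p, miR-199b and miR-214) 0 were called, with a median of 0.52. On PTD 15 against PTD 1 within run period 1, 5 of 8 let-7 members, 1 of 3 miR-29 members, 1 of the 7 and 2 of the 4 were called higher, beside 28.5% of all 376.

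Against the controls, 7.71% of all 376 miRNAs were called higher on PTD 15 and 4.52% lower. Of the markers of cell types, 0 of 3 hepatocyte, 0 of 6 leukocyte, 0 of 2 endothelial and 0 of 3 stromal miRNAs were called there. Of the 3 erythroid miRNAs (miR-144, miR-451 and miR-486) 1 was called higher, with a median of 1.04. The summed level of the erythroid list ran from 2.09 to 3.43 in the controls and from 2.95 to 4.18 on PTD 15, and that of the hepatocyte list from 7.04 to 8.70 and from 5.94 to 9.03, or from 8.002 without the mouse of the low miR-122. The counts and medians of these lists include that mouse. On PTD 15 against PTD 1 within run period 1, 4 of 6 leukocyte, 2 of 2 endothelial, 1 of 3 hepatocyte, 1 of 3 stromal and 0 of 3 erythroid miRNAs were called higher, beside 28.5% of all 376. The part of cell composition in these results was not tested.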

How the data were processed

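Small RNA of 35 livers was reverse transcribed and run on 384-well SYBR Green arrays. The authors deposited the Ct of each well, a cycle number, called by the instrument software at a fixed threshold line of 0.15 over 40 cycles, without normalization. Wells were named from the study's list of assays. -ΔCt used the mean of 4 reference RNAs. Each comparison was fitted on all 376 miRNAs with limma (version 3.58.1, R 4.3.3), p-values were adjusted over them by Benjamini-Hochberg, and a call is an adjusted p under 0.05. The fits were tested on simulated data. Single members had a two-sided exact permutation test over mice. Alternatives were another scaling, other reference sets, Ct 40 for the 15 empty wells, a mean Ct of at most 30, other tests and call rules, subsets of controls, run periods (split at gaps over 7 days) and mice left out. The covariate from the reverse transcription wells, limma's trend option and the array median with the run period as a block were added after seeing the data. By the sample titles 3 of the controls belong to day 1 and 4 to day 30, by the study's methods the reverse, so all 7 formed 1 group. Mice with the same replicate number are different animals. Nothing says that RNA was extracted more than once per mouse, and the 1 array per mouse limits precision. The rule for the members uses names only, but the family, the marker lists and the lists of related miRNAs were chosen with earlier results of these data known. The genes named are the 5 members, the assay with their seed and the 5 assays most correlated with their mean. Other assays appear as lists.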

Additional observations from a re-analysis of the deposited data

Results flagged for a closer look

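The levels of 2 members differed between 2 posttreatment days by a test of these days against each other, without controls. Within run period 1, mmu-miR-30d was higher on PTD 15 than on PTD 1 by 1.10 and mmu-miR-30e by 1.22 on the log2 scale (limma adjusted p = 0.0483 and 0.0380), in 5 of 5 PTD 15 mice against all 4 PTD 1 mice. In that comparison 28.5% of all 376 miRNAs were called higher, 24.7% were higher without overlap, and the median difference of all 376 was 0.80. Both calls were lost in 7 of the 9 fits without 1 mouse, without snoRNA202, without U6 and with the replicate block, and that of miR-30d also without snoRNA142. The difference of the reverse transcription wells was below 0 in all 4 of these PTD 1 mice and above 0 in 3 of 5 PTD 15 mice, and with it as a covariate neither was called. Of 35 groups of levels (5 members in 7 groups), 0 held a mouse that stood apart from its group by Dixon's criterion.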

How the results depend on the processing

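The count of members called against the controls was 0, 0, 0, 1, 0 and 0 on the 6 days in order, 0 for PTD 3, 0 for PTD 7 and 2 for PTD 15 against PTD 1, 0 for PTD 120 against PTD 30, and 0 on each day within the family. All alternatives left the counts of PTD 1 and of PTDs 3 and 120 against other ENU days at 0. With the array median the count was 3 on PTD 7, 2 on PTD 15 and 3 for PTD 7 against PTD 1. Without snoRNA251 it was 2 on PTD 15 (17.3% of all miRNAs called higher), without snoRNA202, snoRNA142 or U6 it was 0 there, and for PTD 15 against PTD 1 it was 0, 1 and 0. For PTD 15 against PTD 1 it was 3 without snoRNA251, in a single fit of all groups, with the methods' t-test, with the exact test and at an unadjusted p under 0.05, where 38.6%, 35.9%, 17.3%, 26.6% and 41.2% of all miRNAs were called higher. With the controls labelled day 1 alone it was 3 on PTDs 7, 15 and 30 and 1 on PTD 120 (36.4% to 48.9% of all miRNAs called higher), and with those labelled day 30 alone it was 0 on PTD 15 and 1 within the family on PTD 7. Within 1 run period, and with the run period as a block, it was 3 on PTDs 7 and 15, and the block gave 1 within the family on PTD 7. With the array median and the run period as a block together it was 2 on PTD 7 and 1 on PTD 15, where miR-30e was called and miR-30c was not. The methods' t-test gave 1 on PTDs 3 and 7, where 1.06% and 3.46% of all miRNAs were called higher, and 1 within the family on PTD 7. The exact test gave 1 on PTD 7, where 2.66% of all miRNAs were called higher, and 1 within the family. The methods' rule (unadjusted p under 0.01 and a fold change above 2) gave 0 on PTD 15 and 0 for PTD 15 against PTD 1. An unadjusted p under 0.05 gave 1, 1 and 2 on PTDs 3, 7 and 15, and 1 within the family on PTDs 7 and 15. For PTD 7 against PTD 1 it gave 2, where 34.8% of all miRNAs were called higher. A single fit of all groups gave 3 for PTD 7 against PTD 1 (24.5% called higher), and 1 and 2 within the family on PTDs 7 and 15. A mean Ct of at most 30 and limma's trend option each gave 1 for PTD 7 against PTD 1. In these fits 32.2% of the 205 miRNAs kept and 20.7% of all 376 were called higher. The covariate from the reverse transcription wells gave 0 on PTD 15 and 0 for PTD 15 against PTD 1. Leaving out 1 mouse gave 0 to 1 on PTD 15, 0 to 1 for PTD 7 and 0 to 3 for PTD 15 against PTD 1. The cause of these changes was not tested.

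With the replicate block, the count was 0 on PTD 15, where 2.13% of all miRNAs were called higher, and 0 for PTD 15 against PTD 1. It was 1 for PTD 7 against PTD 1, where 29.5% of all miRNAs were called higher. With that block miR-30b on PTD 7 was at -0.10, and miR-30d within the family at -0.0058 and -0.012 on PTDs 7 and 15. Of 42 pairs of mice with the same number, 11 had deviations that correlated above 0.1 (r from -0.30 to 0.52), so the numbers were not taken to pair the mice. On PTD 3 alone 6 of 7 such pairs were above 0.1, and there the block left the count at 0.

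Differences from the controls that changed sign were not all near 0, and none of them was called in the fit reported. In that fit they included 0.63 for miR-30a on PTD 120 and -0.54 for miR-30d on PTD 1. With the array median they were miR-30b 0.16 and miR-30c 0.33 on PTD 1, miR-30a 0.13 and miR-30d 0.26 on PTD 3, miR-30a 0.022 on PTD 7, miR-30c -0.28 on PTD 30, and miR-30b -0.17, miR-30d -0.16 and miR-30e -0.18 on PTD 120. Without snoRNA251 they were miR-30c 0.0060 on PTD 1, miR-30b -0.015 on PTD 3 and miR-30a 0.086 on PTD 15. Without snoRNA202 they were miR-30c 0.070 on PTD 1, and miR-30a 0.0018 and miR-30d 0.14 on PTD 3. Without snoRNA142 they were miR-30b -0.15 on PTD 3 and -0.0051 on PTD 7 and miR-30c -0.020 on PTD 30. Without U6 they were miR-30d 0.0049 on PTD 3 and miR-30b -0.038 and -0.044 on PTDs 7 and 15. With the controls labelled day 1 they were miR-30b 0.051, miR-30c 0.084, miR-30d 0.092 and miR-30e 0.15 on PTD 1 and miR-30c 0.0046 on PTD 120. Within 1 run period they were 0.020, 0.064, 0.014 and 0.092 for the same members on PTD 1, and with the run period as a block miR-30c was 0.050. Under these 3 settings miR-30a was 0.41 and miR-30d 0.60 on PTD 3, and miR-30a was 0.31 on PTD 7 and 0.50 on PTD 15. Under the last 2, miR-30a, miR-30b, miR-30d and miR-30e were -0.23, -0.035, -0.087 and -0.13 on PTD 120. With the array median and that block together they were miR-30b 0.077, miR-30c 0.22, miR-30d 0.019 and miR-30e 0.077 on PTD 1, miR-30a 0.19 and miR-30d 0.38 on PTD 3, miR-30a 0.089 on PTD 7, miR-30a 0.019 and miR-30b -0.077 on PTD 15, and miR-30a, miR-30b, miR-30d and miR-30e -0.22, -0.019, -0.071 and -0.11 on PTD 120. Within 1 run period or with that block, miR-30a within the family was -0.12 and -0.11 on PTDs 30 and 120. With the controls labelled day 30 they were miR-30b -0.18 and miR-30e -0.11 on PTD 3, miR-30b -0.18 and miR-30d -0.23 on PTD 7, miR-30b -0.057 on PTD 15, and miR-30d -0.22 and miR-30e -0.19 on PTD 120, and miR-30d within the family was -0.14 and -0.080 on PTDs 7 and 15. With the covariate from the reverse transcription wells they were miR-30c 0.013 on PTD 1, miR-30b -0.014 and miR-30d -0.015 on PTD 7, miR-30d within the family -0.15 and -0.048 on PTDs 7 and 15, and miR-30a -0.043 and miR-30b -0.32 for PTD 15 against PTD 1.

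Leaving out 1 mouse changed the sign of 9 differences, none of them called, whose ranges were miR-30c on PTD 1 -0.15 to 0.073, miR-30a on PTD 3 -0.36 to 0.0094, miR-30b on PTD 3 -0.075 to 0.12, miR-30d on PTD 3 -0.19 to 0.12, miR-30b on PTD 7 -0.089 to 0.14, miR-30a on PTD 15 -0.28 to 0.097, miR-30c on PTD 30 -0.034 to 0.35, miR-30c on PTD 120 -0.29 to 0.0047 and miR-30d on PTD 7 within the family -0.040 to 0.070.

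The number of neighbouring groups that differed beyond their pooled SD, 3 of 30, was 5 without snoRNA251, 1 without snoRNA202 and 1 without snoRNA142. The number of mice, 4 to 7 in a group, limits the precision of all these values.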
